A study of Mus musculus with 5 samples.

Results

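The centromere-proximal ends of the mouse autosomes were taken as bases 3000001 to 6000000 of chromosomes 1 to 19 in the mm10 build, without the stretch of chromosome 9 up to base 3039000, where satellite repeats lie. Methylation was averaged over tiles of 1000 bp that held at least 3 CpGs covered 10 times or more in each of the 5 libraries. By this rule 3027 tiles lay in the ends, of 135997 tiles on all chromosomes, and the 128612 tiles of the rest of the autosomes served for comparison. Of 272058 CpGs that any library listed in the ends, 21843 had this coverage and 14353 of those lay in a tile. The study compared sperm of C57BL/6 mice at 2 ages by bisulfite sequencing of genomic DNA, with 3 libraries of young sperm (age 2 months) and 2 of old sperm (age 18 months). Only sperm that swam free of the cauda epididymis were taken, the part of the duct where mature sperm are stored, and the labels name no mutation or treatment. Whether the libraries stem from separate animals is not in the labels; p-values then reflect just the spread among 5 libraries, which may be technical.

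Mouse autosomes are telocentric: the centromere sits at one tip, and the assembly begins after a gap that stands for the telomere, the centromeric satellites and the pericentromeric heterochromatin. The first assembled bases are therefore the unique sequence nearest to the centromere, and they are rich in segmental duplications and pseudogenes. In sperm most CpGs outside CpG-rich promoters are highly methylated, since DNA methylation is laid down again across the genome in male germ cells before birth.

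Reads over the listed cytosines summed to between 67774094 and 97769462 per library. In the ends the median tile held 121 to 167 reads per library, and in the rest of the autosomes 116 to 162. The facing ends of Peg10 and Sgce, an imprinted promoter in the chromosome 6 end that is free of methylation in sperm, read 18.6% in young replicate 1, 0% in young replicate 2, 32.3% in old replicate 1 and 37.5% in old replicate 2, with none to 161 reads per library, and young replicate 3 listed no CpG there. H19 and its surroundings, methylated on the sperm allele, were at 76.0% to 92.5%. Promoters of 4 leukocyte genes summed to 80.6% to 89.2%, although that of Cd3e was at 20% to 74.3% with 5 to 35 reads, and promoters of 3 genes of the epididymal epithelium to 83.7% to 93.8%; the part of other cells in the results below was not tested. Young replicate 3 had the lowest level in the rest of the autosomes, 89.0%, and young replicate 2 the highest, 89.9%, so results that rest on these libraries are given without them.

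The sequences of 2 promoters of the ends are printed below, that of H60c partly methylated and that of Dnaaf3 nearly free of methylation. They are the RefSeq windows (GRCm38.p6) from 250 bases before to 50 bases after the gene start, printed along the gene's strand, and of 873 such windows in the ends these were the ones with at least 3 measured CpGs. Capitals mark each CpG that was covered 10 times or more in each library. H60c encodes a ligand of the NKG2D receptor of natural killer cells, and its window lies at chr10:3267722-3268021 on the minus strand, within the first 0.5 Mb of the chromosome. Dnaaf3 encodes a factor for assembly of the dynein arms of cilia and flagella, and its window lies at chr7:4532416-4532715 on the minus strand.
H60c: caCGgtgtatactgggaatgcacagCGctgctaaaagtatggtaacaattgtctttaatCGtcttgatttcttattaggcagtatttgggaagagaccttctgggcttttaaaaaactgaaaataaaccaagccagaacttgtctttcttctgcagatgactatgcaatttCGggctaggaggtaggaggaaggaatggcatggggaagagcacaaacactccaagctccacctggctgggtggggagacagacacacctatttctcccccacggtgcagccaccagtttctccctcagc
Dnaaf3: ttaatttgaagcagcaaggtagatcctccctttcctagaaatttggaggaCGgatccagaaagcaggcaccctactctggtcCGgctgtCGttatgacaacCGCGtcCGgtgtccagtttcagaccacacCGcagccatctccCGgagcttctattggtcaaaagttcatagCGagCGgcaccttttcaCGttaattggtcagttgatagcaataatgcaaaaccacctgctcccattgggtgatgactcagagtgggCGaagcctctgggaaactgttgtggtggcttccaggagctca
The H60c window has 5 CpGs, of which 4 were measured, and the Dnaaf3 window has 12, all measured; the median over all 32851 RefSeq windows of this length is 7.

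The H60c window was partly methylated and uneven between young libraries. Its level was 23.7%, 13.5% and 39.8% in young 1 to 3 and 21.5% and 23.3% in old 1 and 2, with 253 to 354 reads per library. The Wilson 95% intervals, which cover counting error only, ran from 9.96% to 18.1% in young replicate 2 and from 34.9% to 45.0% in young replicate 3, so these 2 libraries of the same age did not overlap. The old libraries lay between them. The whole H60c gene, with 1000 bp on either side and 23 CpGs, was also lowest in young replicate 2 and highest in young replicate 3, at 27.2%, 19.4%, 43.5%, 25% and 29.5% in the same order of libraries. The Dnaaf3 window, in contrast, held 0.167%, 0.426%, 1.19%, 0.567% and 0.742% in the same order of libraries, with 469 to 671 reads, and no CpG in it rose above 9.09% in any library.

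**Figure D1:**
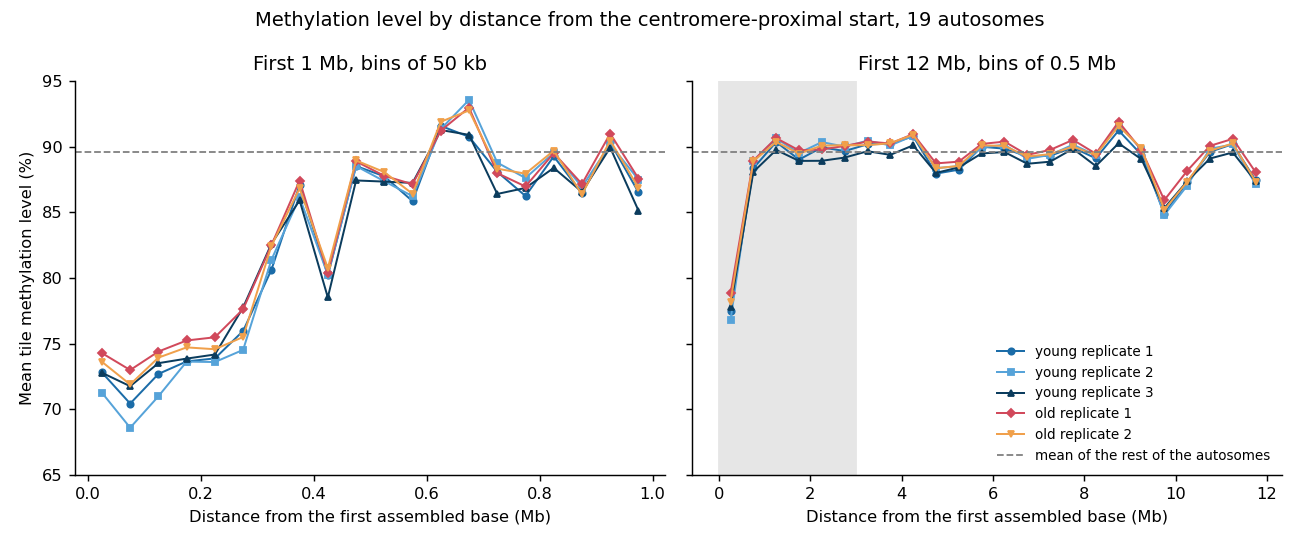
Mean methylation level (%) of tiles of the 19 autosomes against the distance from base 3000001 (Mb), which the axis label calls the first assembled base. Bins are of 50 kb (left) and 0.5 Mb (right, ends shaded). Each line is 1 library and the dashed line is the mean of the rest of the autosomes. All 5 lines start between 71.3% and 74.3% and come near the dashed line within the first 0.5 Mb.

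The ends as a whole were slightly less methylated than the rest of their chromosomes, and on average over autosomes nearly all of this lay in the first 0.5 Mb. Averaged over the 19 autosomes, the ends were at 87.6%, 88.0% and 87.0% in young 1 to 3 and at 88.1% and 88.0% in old 1 and 2. The rest was at 89.8%, 89.9%, 89.0%, 89.8% and 89.7% in the same order. Ends minus rest was -1.89 points ± 0.202 (SD, n = 5), and the difference was negative in all 5 libraries, between -2.12 and -1.68 (two-sided exact sign-flip test over 5 libraries, p = 0.0625, the smallest that 5 libraries allow). On 13 autosomes the end was lower than the rest, on 11 of them in all libraries, and on 6 it was higher, on 5 in all libraries. The last 3 Mb of the autosomes, measured in the same way, differed from the rest by -0.60 points.

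The level changed with distance from base 3000001, from which it was counted on each autosome. The first tile began later on some autosomes, such as at base 3100001 on chromosome 11 and 3109001 on chromosome 10. In bins of 50 kb the mean over tiles was 72.9% in the first, 71.1% in the second, 73.1%, 74.2%, 74.3% and 76.3% in the next 4, and 81.9% from 300 to 350 kb. It was then 86.7%, fell back to 80.01% from 400 to 450 kb and was 88.5% from 450 to 500 kb, so the rise was not steady. The first bin held 24 tiles from 7 autosomes, so its value describes few chromosomes, while the bins from 100 to 400 kb each drew on 16. From 1.0 to 3.0 Mb the means of the 0.5-Mb bins lay between 89.3% and 90.3%. The division at 0.5 Mb was chosen after these values were seen, so the contrasts that use it are described without a test.

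Over the 484 tiles of the first 0.5 Mb the level was 77.4%, 76.8% and 77.8% in young 1 to 3 and 78.8% and 78.2% in old 1 and 2. The 2543 tiles from 0.5 to 3 Mb were at 89.4%, 89.9%, 89.0%, 89.8% and 89.8%. Averaged over the autosomes, the first 0.5 Mb minus the rest was -8.79 points, with libraries between -9.65 and -8.18, and the interval from 0.5 to 3 Mb differed from the rest by 0.0359 points, with libraries between -0.173 and 0.225. In that later interval 8 autosomes were lower than their rest, 6 of them in all libraries, and 11 were higher, each in all libraries. Its difference from the rest ran from -9.03 points on chromosome 3 to 3.61 on chromosome 5. The 2 libraries of old sperm had the highest levels of the first 0.5 Mb, and all 5 libraries lay between 76.8% and 78.8%.

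**Figure D2:**
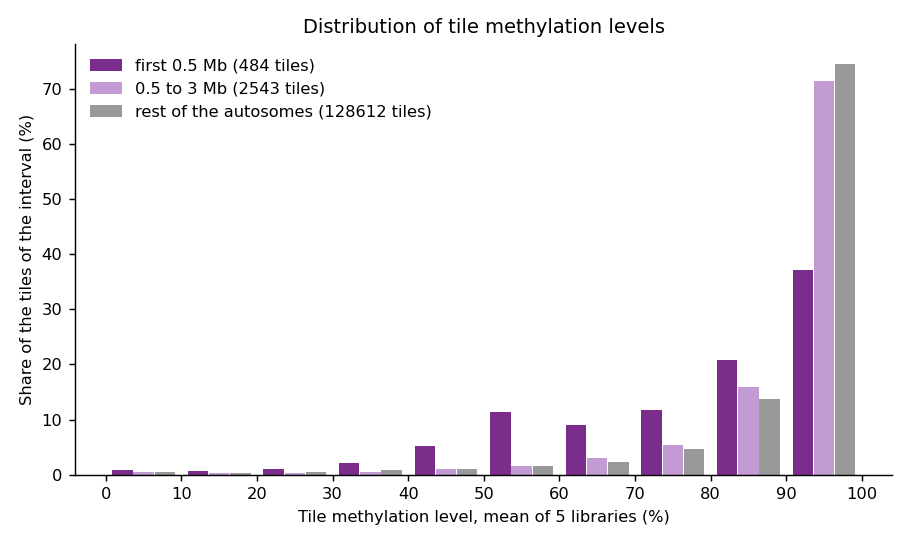
Share (%) of the tiles of each interval in bins of 10 points of the methylation level, each tile by its mean over 5 libraries. In the first 0.5 Mb (dark bars) 37.2% of tiles were at 90% or more, against 74.4% in the rest of the autosomes (grey bars), and the tiles that made up the difference lay mostly between 40% and 90%.

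The low level of the first 0.5 Mb went with many tiles of middle methylation and few unmethylated ones. In the first 0.5 Mb, 196 of 484 tiles (40.5%) had a mean level from 20% to 80%, against 11.8% of tiles from 0.5 to 3 Mb and 11.1% in the rest of the autosomes. By library the share was 42.4%, 39.9% and 43.6% in young 1 to 3 and 38.4% and 39.3% in the old libraries, all far above the 10.6% to 12.6% of the rest. The 55 tiles from 50% to 60% made up 11.4% of the first 0.5 Mb, and that class held 1.53% of the rest. Over the whole ends tiles under 20% were rare, with 30 of 3027 tiles (0.991%) against 0.892% in the rest. Averaged over autosomes, their share minus that of the rest was 0.0149 points, with libraries between -0.102 and 0.155 (two-sided exact sign-flip test, p = 0.812; smallest possible 0.0625). In the first 0.5 Mb alone, 7 of 484 tiles (1.45%) were under 20%, and the share minus the rest was 0.756 points, positive in all 5 libraries (0.537 to 1.15).

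Within the partly methylated tiles the single CpGs were themselves partly methylated. Of the 1126 CpGs in such tiles of the first 0.5 Mb, 75.8% were at 20% to 80%, 4.0% were under 20% and 20.2% were at 80% or over. In partly methylated tiles of the rest, 74.4% of CpGs were at 20% to 80%, a share close to that in the first 0.5 Mb. The mean level of the 196 tiles was 59.4%, 57.4% and 62.7% in young 1 to 3 and 62.5% and 61.1% in the old libraries. Young replicate 2 was lowest and young replicate 3 highest, as they were in the partly methylated tiles of the rest, at 59.6% and 65.3%.

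Coverage was higher in the first 0.5 Mb, by 1.11 to 1.19 times per CpG and library, and 10.7% of its tiles had over 100 reads per CpG against 4.23% in the rest. Duplicated sequence can pile reads onto a single copy, and which tiles hold such reads was not tested. In tiles under 25 reads per CpG the first 0.5 Mb was at 80.4% against 89.6% in the rest, and in tiles with 25 to 40 reads at 80.1% against 89.7%. In tiles with 100 reads or more it was lowest, at 71.4% against 89.8%. By the number of CpGs in a tile, the level went from 79.2% against 90.6% in tiles with 3 CpGs to 64.6% against 79.8% in those with 10 or more.

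**Figure D3:**
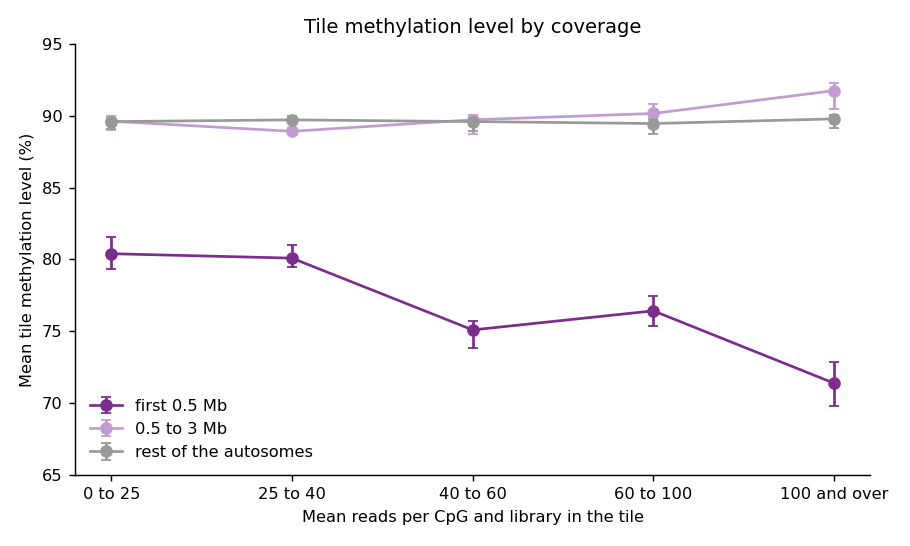
Mean methylation level (%) of tiles grouped by mean reads per CpG and library, for the first 0.5 Mb, the interval from 0.5 to 3 Mb and the rest of the autosomes; points are means over tiles and libraries and bars span the lowest and highest library. The first 0.5 Mb lies lowest in each coverage class, from 80.4% in the thinnest to 71.4% in the deepest.

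Much of the first 0.5 Mb is poor in protein-coding genes. Counted from base 3000001 on each autosome, it holds 7.58 annotated protein-coding genes per Mb, against 11.3 from 0.5 to 3 Mb, and 10.4 pseudogenes per Mb against 4.59. Tiles that overlap a protein-coding gene there were at 84.2%, with 23.6% of them partly methylated, and tiles in no annotated gene or pseudogene were at 74.5%, with 51.6% partly methylated. The 25 tiles in pseudogenes were lowest, at 67.2%. In the rest of the autosomes the same classes were at 90.8%, 89.0% and 83.3%, so each class was lower in the first 0.5 Mb than elsewhere.

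**Figure D4:**
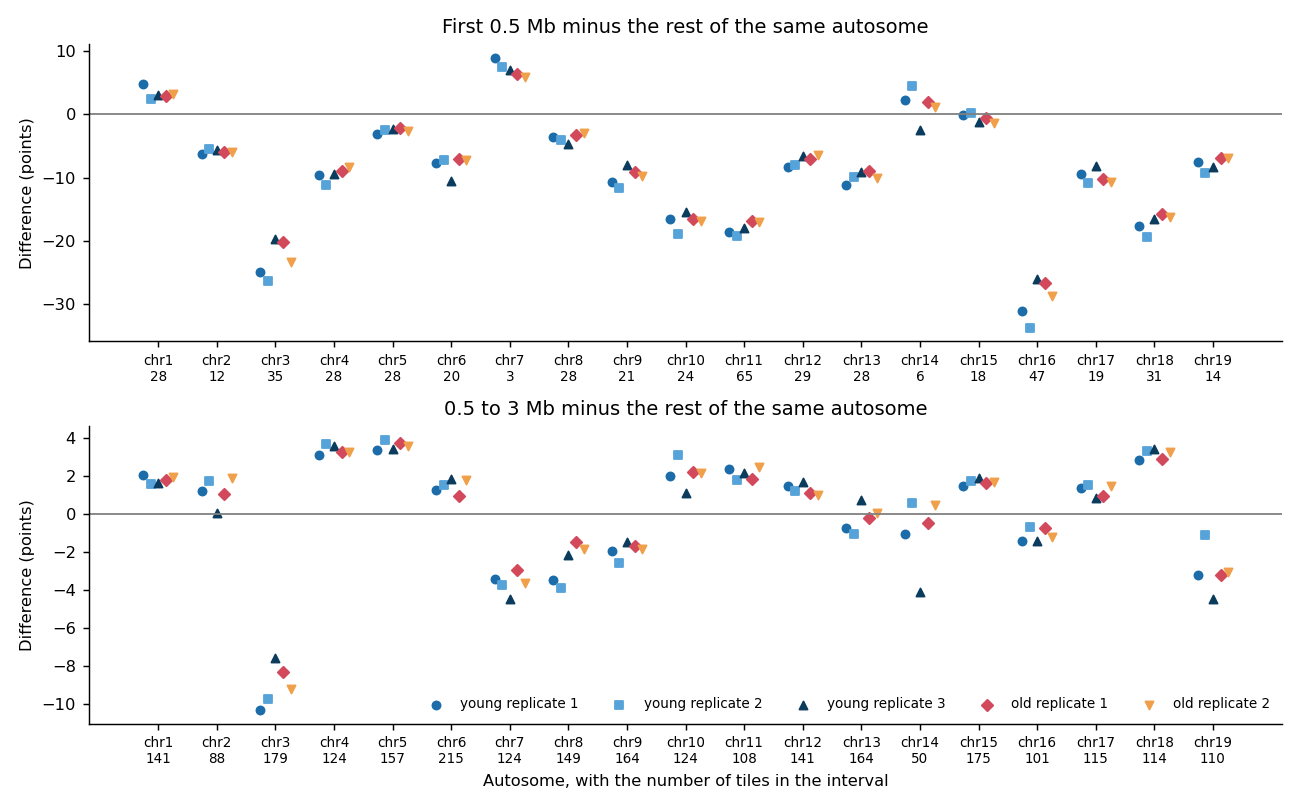
Methylation level of the first 0.5 Mb (top) and of the interval from 0.5 to 3 Mb (bottom) minus that of the rest of the same autosome, in points, with 1 symbol per library and the number of tiles under each autosome. Chromosomes 16 and 3 lie lowest in the top panel, at -29.3 and -22.9 points on average, and chromosome 3 lies lowest in the bottom panel, at -9.03 points.

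The autosomes differed widely in this. In the first 0.5 Mb the level was lowest on chromosome 16, at 59.2%, 56.6% and 63.6% in young 1 to 3 and 63.6% and 61.4% in the old libraries, and 41 of its 47 tiles (87.2%) were partly methylated. Chromosome 3 followed at 66.8% on average, then chromosomes 11 (72.3%), 10 (73.2%) and 18 (73.7%). Chromosome 16 lay under chromosome 3 in every library, and chromosome 3 under chromosome 11. Chromosome 11 lay under chromosome 18 in all 5 libraries, while it lay under chromosome 10 in 4 of 5 and chromosome 10 under chromosome 18 in 3 of 5. Chromosomes 13, 4, 9 and 17 were at 78.6% to 80.1%, and chromosomes 6, 19, 12, 2, 8, 5 and 15 at 81.7% to 89.3%. Chromosome 1, at 92.7% over 28 tiles, was above its own rest by 3.30 points. Chromosomes 7 and 14, which had only 3 and 6 tiles there, were above theirs by 7.17 and 1.51 points. In young replicate 3, chromosome 14 lay below its rest, at 86.9% against 89.4%.

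Against all other windows of 0.5 Mb of the same chromosome, the first was the lowest of 188 on chromosome 16 and the lowest of 175 on chromosome 18. Counted from the lowest, it had rank 3 on chromosomes 10 and 11 and rank 4 on chromosome 3. In all, 12 of 18 first windows with at least 5 tiles lay in the lowest 10% of their chromosome, and 2 lay above its median.

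Of the 114 intervals of 0.5 Mb that make up the ends, 14 had a mean under 80%, 8 of them among the 19 first intervals and 6 among the 95 later ones. Of the later intervals, 4 were on chromosome 3, where levels stayed at 78.6% to 79.2% from 0.5 to 2.5 Mb and rose to 89.8% in the last 0.5 Mb. The annotation places 2 protein-coding genes in the first 2.5 Mb of this end: Hnf4g and Zfhx4, a nuclear receptor and a zinc-finger homeobox factor. The last 0.5 Mb of the chromosome 7 end was at 67.3%, with 85.7% of 21 tiles partly methylated, and the 5 protein-coding genes annotated there are all vomeronasal receptors, Vmn1r60 to Vmn1r64, which detect pheromones. The remaining one, from 2.0 to 2.5 Mb of chromosome 19, was of another kind: it holds 29 protein-coding genes, its mean was 78.6%, and 13.8% of its tiles were partly methylated. These intervals were named after their values were seen.

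Over the whole 3 Mb, the end was lowest on chromosome 3, at 78.5% with a difference of -11.3 points from its rest, followed by chromosome 16, at 80.1% and -10.1 points, and the end of chromosome 3 was the lower of the 2 in all 5 libraries. Chromosomes 7, 11, 19 and 8 were at 83.5%, 84.9%, 86.2% and 86.8%. Chromosomes 9, 13, 17, 10 and 14 had ends at 87.1% to 89.2%, and chromosomes 18, 6, 2, 12 and 4 at 89.7% to 90.4%. The highest ends were those of chromosomes 15 (91.4%), 1 (91.5%) and 5 (91.8%), each above its rest in all libraries. Of the 18 pairs of neighbours in the order of end levels, 8 had the same order in all 5 libraries, among them chromosomes 16 and 7, 7 and 11, and 4 and 15. Other coverage limits, or leaving out 1 library, turned the sign of end minus rest on 4 autosomes (chromosomes 4, 12, 14 and 17), moved it by over 1.5 times on 7 more, among them chromosomes 7 and 11, and did neither on 8. Without chromosomes 3 and 16, ends minus rest was -0.86 points.

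A few tiles were almost free of methylation in both ages. The lowest, chr12:3427001-3428000 with 11 CpGs, overlaps Asxl2, which encodes an Additional-sex-combs-like chromatin protein, and held 0.588%, 0.205% and 0.401% in young 1 to 3 and 0.195% and 0.60% in the old libraries, with 488 to 512 reads. Next was chr15:3995001-3996000 in AW549877, with 5 CpGs and levels of 1.04%, 0.935% and 0.595% in young sperm. Both old libraries had no methylated read there, which allows up to 1.95% and 4.55%. The tile chr17:3083001-3084000, with 18 CpGs, lies 14922 bp from the nearest gene, the lncRNA A230045G11Rik, and was at 0.391% to 0.684%. The tiles chr19:5295001-5296000, overlapping the splicing factor gene Sf3b2, and chr10:3740001-3741000, in the overlapping genes Plekhg1 and Gm30164, were at 0.441% to 1.02% and 0.448% to 1.51%. In these 5 tiles old minus young lay between -0.857 and 0.161 points.

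Among partly methylated tiles of the first 0.5 Mb, the one with the most CpGs was taken on each of the 5 lowest autosomes, a choice made after the values were seen. On chromosome 11 this was chr11:3101001-3102000, 29850 bp from Sfi1, with 28 CpGs at 54.9%, 52.0% and 67.0% in young 1 to 3 and 61.4% and 59.3% in old. It had 485 reads per CpG, so its reads may come from more than 1 copy, which was not tested. On chromosome 16, chr16:3352001-3353000, with 9 CpGs and 25 reads per CpG, was at 62.1%, 61.8%, 66.3%, 72.1% and 60.4%. The tile chr10:3113001-3114000, 5841 bp from 9230019H11Rik and with 16 CpGs, was the most even, between 56.3% and 60.2%. The tile chr18:3007001-3008000, 114492 bp from Vmn1r238, was the least even, from 45.9% in young replicate 2 to 66.5% in young replicate 3. On chromosome 3, chr3:3177001-3178000, with 18 CpGs, was at 71.1% to 79.3%. Age did not part the libraries in these tiles except on chromosome 10, where both old libraries were above all young ones, at 58.2% and 60.2% against 56.3% to 57.2%.

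The contrast of the study is age. The mean level of the ends was 87.5% ± 0.466 (SD, n = 3) for young and 88.1% ± 0.0759 (SD, n = 2) for old sperm, so old exceeded young by 0.533 points (exact permutation over 10 splits, two-sided, p = 0.2; smallest possible 0.1). Both old libraries lay above all 3 young ones. Without young replicate 3, the library with the lowest level, the difference was 0.280 points. Relative to the rest of the same chromosomes, the ends were at -2.12, -1.99 and -2.0 points in young 1 to 3 and -1.68 in both old replicates. This difference between the ages, 0.358 points, was larger than the spread within either age (exact permutation test, p = 0.1, the smallest possible) and was 0.378 without young replicate 3. Under some other settings, listed with the processing below, its exact permutation p was 0.2 or 0.3. In the first 0.5 Mb, averaged over autosomes, young sperm was at 80.5% ± 0.250 (SD, n = 3) and old sperm at 81.3% ± 0.398 (SD, n = 2), 0.810 points higher in old. That difference was 0.529 points without old replicate 1 and 0.430 with CpGs of at least 20 reads.

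No single end tile was called between the ages. The quasi-binomial model with Benjamini-Hochberg adjustment over all 135997 tiles called 0 of 3027 end tiles, with calls set at 10 points or more and adjusted p under 0.05, against 0.0% of all tiles, and limma on log2 odds called 0 as well. At an unadjusted p under 0.05 the model had 72 end tiles higher in old (2.38%) against a background of 1.64% of all tiles, and 21 lower in old (0.694%) against 1.07%; limma had 119 in both directions (3.93%) against 3.89%. Of the 484 tiles of the first 0.5 Mb, 24 were higher (4.96%) and 3 lower (0.620%) at that level in the quasi-binomial model, while limma had 12 in both directions (2.48%), under its background. In 324 end tiles (10.7%) both old libraries lay above all young ones, against 9.24% of all tiles, and in 212 (7.0%) both lay below, against 7.76%. The median difference of end tiles was 0.310 points, against 0.148 over all tiles, and in the first 0.5 Mb it was 0.831. Tiles share libraries and lie next to each other, so these shares describe the 5 libraries.

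**Figure D5:**
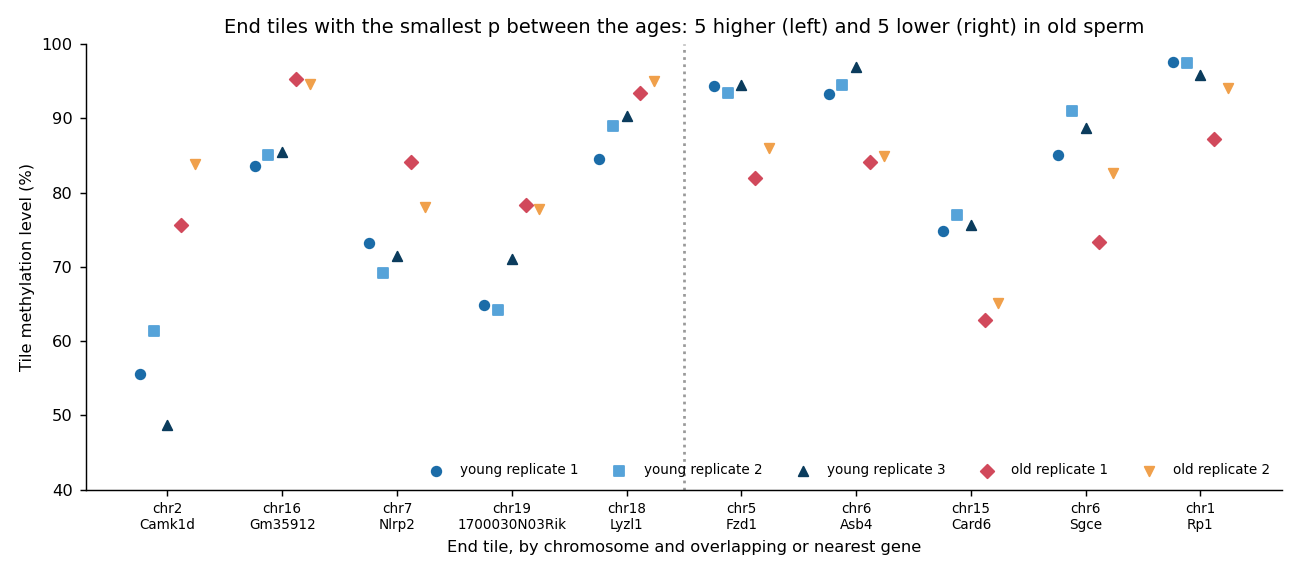
Methylation level (%) of 10 end tiles, the 5 of smallest p among those above young in old sperm and the 5 of smallest p among those below, with 1 symbol per library; tiles are named by chromosome and by the overlapping or nearest gene. The tile in Camk1d has the widest gap, from 48.8% to 61.4% in young against 75.6% and 83.8% in old libraries; no tile passed the adjusted test.

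The tiles with the smallest p in each direction were chosen for their difference, so their values are a description. The first was chr2:5379001-5380000, inside Camk1d, a calcium- and calmodulin-dependent kinase, with 19 CpGs. It was at 55.5%, 61.4% and 48.8% in young 1 to 3 and 75.6% and 83.8% in old 1 and 2, with 566 to 1348 reads. The Wilson 95% intervals closest to each other ended at 64.5% in young replicate 2 and began at 72.5% in old replicate 1. The difference of 24.5 points had a quasi-binomial adjusted p of 0.60, and with young replicate 2 or young replicate 3 left out it was 27.6 and 21.3 points with adjusted p of 0.0480 and 0.0161. The tile was not called without young replicate 1 (24.7 points), with CpGs of at least 20 reads (24.4 points) or with limma. With the replicate number as a block it differed by 21.3 points (quasi-binomial adjusted p = 0.923). Without old replicate 1 and without old replicate 2 the difference was 28.6 and 20.4 points.

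The other 4 higher tiles were gains of 6.30 to 11.4 points. On chromosome 16, chr16:3135001-3136000, with 9 CpGs and 121294 bp from the lncRNA Gm35912, was at 83.6%, 85.1% and 85.4% in young and 95.3% and 94.7% in old libraries. On chromosome 7, chr7:5375001-5376000, 23966 bp from the inflammasome receptor gene Nlrp2, was at 69.2% to 73.2% in young and 84.2% and 78.0% in old. On chromosome 19, chr19:3136001-3137000, 16799 bp from 1700030N03Rik, was at 64.2% to 71.0% and at 78.3% and 77.8%. On chromosome 18, chr18:3975001-3976000, 189832 bp from the lysozyme-like gene Lyzl1, was at 84.5% to 90.3% and at 93.4% and 95%. In each of them both old libraries lay above all young ones.

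The 5 lower tiles differed by -6.27 to -11.8 points. They were chr5:4634001-4635000, 118839 bp from the Wnt receptor gene Fzd1 (93.4% to 94.4% in young, 81.9% and 85.9% in old), and chr6:5378001-5379000, 4386 bp from Asb4 (93.2% to 96.9%, then 84.1% and 84.9%). On chromosome 15, chr15:5090001-5091000, 5920 bp from Card6, was at 74.8% to 77.0% in young and 62.9% and 65.1% in old. The tile chr6:4732001-4733000 in the imprinted gene Sgce was at 85.1% to 91.0% and at 73.4% and 82.7%. The tile chr1:4188001-4189000 in the photoreceptor gene Rp1 was at 95.8% to 97.6% and at 87.2% and 94.1%. These tiles held 3 to 5 CpGs and 53 to 197 reads per library, and the widest Wilson interval among them spanned 19.2 points. Without old replicate 1 the Rp1 tile differed by -2.82 points and the Sgce tile by -5.57, without old replicate 2 the Rp1 tile differed by -9.72, and with CpGs of at least 5 reads the Card6 tile differed by -20.4.

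Read-weighted windows of 3 Mb gave no call for any of the 19 ends with the quasi-binomial model, at an adjusted p under 0.05, against 0.0% of all 886 windows; limma also gave 0. At an unadjusted p under 0.05 no end passed with either tool, against 1.47% of all windows with the quasi-binomial model and 1.58% with limma. The difference of old minus young was above 0 in 15 of 19 ends, as in 630 of the 886 windows. The widest was that of chromosome 3, at 2.04 points (adjusted p = 1.0). Without young replicate 3, 3 ends passed, all higher in old: chromosome 3 by 3.37 points (adjusted p = 0.0223), chromosome 12 by 2.64 (adjusted p = 0.0153) and chromosome 11 by 1.98 (adjusted p = 0.0374). With all 5 libraries the chromosome 12 end differed by -0.0883 points, so its sign turned, and the chromosome 11 end by 0.834. Read weighting lets deep tiles count more. By tile means, the chromosome 12 end was at 90.45% and 90.52% in young 1 and 2 and 90.55% and 90.46% in old libraries. The chromosome 11 end was at 84.91% and 84.83%, then 85.16% and 85.43%. That of chromosome 3 was at 77.17% and 77.37%, then 79.74% and 78.24%. How many of all 886 windows passed without young replicate 3 is not given here, so these calls are not shown to be particular to the ends.

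Of 902 annotated protein-coding and lncRNA genes with at least 50% of their length in the ends, 436 had at least 3 measured CpGs within the gene or 1000 bp of it. The quasi-binomial model called 0 of them between the ages, at an adjusted p under 0.05 and at least 10 points, against 0.0% of 17904 genes, and limma called 0. At an unadjusted p under 0.05 the quasi-binomial model had 8 of the 436 genes in the ends, 7 higher and 1 lower. Over all 17904 genes it had 254 (1.42%), 154 higher and 100 lower. At that level limma had 9 genes in the ends (2.06%) against 2.96%. The median gene in the ends was at 92.9%, against 93.6% over all genes, and the median difference between the ages was 0.0468 points.

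Over the CpGs that were measured, the gene lists of the ends were mostly highly methylated. Promoters are nearly absent from these levels, since 2 of 873 promoter windows in the ends had at least 3 measured CpGs. Of 19 developmental transcription factor and signalling genes, 11 were measured, with a median level of 91.2% and 5 higher and 6 lower in old sperm, none called. Esr1, the oestrogen receptor with 209 CpGs, was at 95%, 95% and 93% in young 1 to 3 and 94.5% and 94.3% in old. Zfhx4, in the low stretch of chromosome 3, was lower, at 74.7%, 76.1%, 75.9%, 76.0% and 78.1%. Cdk6, a cell cycle kinase, and Znrf3, a Wnt-antagonising ubiquitin ligase, averaged 91.1% and 96.9%. Of 12 chromatin and DNA methylation genes, 8 were measured, with a median of 92.2%. Dnmt3a, the de novo DNA methyltransferase of male germ cells, was at 87.8%, 89.3%, 88.9%, 87.1% and 89.0%. Ncoa1 and Arid1b, a coactivator and a subunit of a chromatin remodeller, averaged 95.5% and 91.3%. Asxl2, which holds the lowest tile, averaged 71.1%.

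The 9 genes of the imprinted cluster in the chromosome 6 end were all measured and had a median of 94.3%, with Ppp1r9a at 94.3%, Sgce at 94.5%, Pon3 at 96.9% and Pon2, a paraoxonase, at 73.7%. None was called, and 5 were higher and 4 lower in old sperm. Peg10, at 94.3%, rests on 7 CpGs. The levels of Peg10 and Sgce include no CpG of their facing ends, since young replicate 3 listed no CpG there. Of 11 neuronal and synaptic genes in the ends, 4 were measured: the glutamate receptor subunit Gria4 at 92.5%, Frmd4a at 90.8%, the synaptotagmin Syt12 at 97.4% and Camk1d at 85.5%. Syt12 rests on 4 CpGs and was at 64.1% with CpGs of at least 5 reads. Over its 70 CpGs Camk1d was at 81.5%, 83.8% and 83.2% in young 1 to 3 and 88.7% and 90.1% in the old libraries, 6.58 points higher in old (quasi-binomial adjusted p = 1.0), and it holds the tile described above.

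Hormone receptor and metabolic genes had 12 of 13 measured, with a median of 95.3%, among them the growth hormone receptor Ghr at 95%, the insulin receptor Insr at 91.7%, the ketone-body enzyme gene Oxct1 at 95.3% and the adenylyl cyclase gene Adcy9 at 95.3%. Germ cell and sperm genes had 5 of 7 measured, with a median of 94.1%: Syne1, a nuclear envelope linker, was at 93.9%, the anchoring protein gene Akap9 at 95.9%, the spermatid transcription factor gene Crem at 93.3% and Tesmin at 96.4%. Innate immune genes had 9 of 13 measured, with a median of 91.8%, including the complement genes C7 at 92.2% and C6 at 81.0%, the kinase gene Lyn at 91.6% and Nlrp2 at 88.3%. Of 11 constitutively expressed genes, 7 were measured, with a median of 93.1%. Lypla1, Tcea1 and Gdi2 averaged 96.1%, 95.7% and 93.1%, and the nuclear lncRNA Malat1 stood apart at 53.5%, 60.5% and 34.6% in young 1 to 3 and 52.7% and 55.0% in old. No gene of these 8 lists was called between the ages, and 2 of them had an unadjusted p under 0.05, Camk1d and Hnf4g. Hnf4g, named here for its p, was at 85.7%, 88.7% and 86.4% in young and 89.6% and 88.8% in old libraries (quasi-binomial adjusted p = 1.0).

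The genes in the ends with the least methylation over their measured CpGs were chosen by their level and are described without a test. Their levels describe those CpGs and not the whole gene. That of Ppp1r12c rests on 31 to 60 reads per library. The lncRNA Gm34507 on chromosome 17 averaged 1.01% over 9 CpGs, Ppp1r12c, a myosin phosphatase subunit, 1.22% over 3, and Mcm10, a replication factor, 1.99% over 15. Ighmbp2, a helicase, averaged 4.92% and Msantd4 6.13%. The whole Dnaaf3 gene averaged 7.25% over 17 CpGs, of which the 12 in its promoter window averaged 0.619%. The lncRNA Gm52192, in the first 0.5 Mb of chromosome 15, had the widest spread within an age among these genes, from 16% in young replicate 2 to 52.9% in young replicate 3, with old replicates at 22.3% and 28%.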

How the data were processed

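Whole-genome bisulfite data of 5 mouse sperm libraries were used. The submitters' processing notes list the build mm10 (GRCm38), methylKit 1.4.0, Bismark 0.16.3 and Trim Galore 0.4.3. Roles, settings and duplicate removal: not given in the sources used here. Per the file headers, the deposited files give for each cytosine the coverage as a count of reads and the percent of reads read as C and as T. The lowest coverage listed was 5 reads, and percent times coverage gave whole reads for 100% of cytosines. An unconverted C and a methylated C look alike in such reads.

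Strands of a CpG were summed, and CpGs covered 10 times or more in each library were kept, with no upper limit. A tile of 1000 bp with at least 3 such CpGs has as its level the methylated over all reads. Levels were averaged over tiles in each autosome, then over 19 autosomes, unless given for all tiles. Ends and rest were compared with an exact sign-flip test over 5 libraries, and the ages with an exact permutation test over 10 splits, both two-sided. Tiles, windows of 3 Mb with at least 10 tiles and genes were tested with a quasi-binomial model of methylated and unmethylated reads, whose dispersions were squeezed by limma's method with a floor of 1, and p was adjusted by Benjamini-Hochberg over the whole table; code was tested on simulated data. limma 3.58.1 (R 4.3.3) on log2((methylated + 1)/(unmethylated + 1)) was the alternative. Other steps used matplotlib 3.10.9, scipy 1.17.1, pandas 2.3.3 and numpy 2.4.6 under Python 3.11.15. Wilson intervals (95%) and the limit at a count of 0 (3 reads of the total) cover counting error only, since reads are not independent molecules.

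Gene coordinates and promoter sequences came from RefSeq tables of GRCm38.p6. The region, the gene lists and the tests were chosen with earlier results of these data known. The text names every called end tile (there was none), otherwise the 5 higher and 5 lower end tiles with the smallest p, the 5 lowest end tiles, each of the 19 ends, and up to 4 measured genes with the most CpGs from each of 8 lists. The division at 0.5 Mb, the classes at 20% to 80%, the coverage and CpG classes, the promoter view and the tiles with the most CpGs came after the data were seen. Fits with 1 library left out kept the CpGs common to all 5. Tile sequences and repeat annotation were not analysed here.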

Additional observations from a re-analysis of the deposited data

How the results depend on the processing

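Ends minus rest, -1.89 points, kept its sign under the other coverage minimums and limit, tile widths, CpG minimum, weights, end lengths, sets of autosomes and rests that were tried, with a range of -1.95 to -1.84 when 1 library was left out; the exception was leaving out the first 0.5 Mb, an alternative chosen after seeing the data, with 0.0359. It was -5.09 with ends of 1 Mb and -1.09 with ends of 6 Mb. The age difference of the ends lay between 0.280 and 0.740 points when 1 library was left out, and that of ends minus rest between 0.316 and 0.379. For ends minus rest, the exact permutation p of the age difference was 0.2 with at least 5 reads, 500-bp tiles or at least 5 CpGs. It was also 0.2 with all tiles pooled, with ends of 6 Mb and without chromosomes 3 and 16. Settings that kept it at 0.1 included at least 20 reads, the coverage limit, tiles of 2000 bp, ends of 1 Mb and single CpGs. Without the first 0.5 Mb the difference was 0.237 points (exact permutation p = 0.3). The difference in the share of tiles under 20% turned to -0.0572 with tiles of 500 bp and -0.144 with ends of 6 Mb, and lay between -0.0201 and 0.0442 with 1 library left out. In the other direction it was 0.397 with ends of 1 Mb, 0.225 with at least 20 reads and 0.141 with at least 5 CpGs (exact sign-flip p = 0.0625 for each, the smallest possible).

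The first 0.5 Mb minus the rest was -9.40 points with at least 20 reads, -6.70 with at least 5, -8.16 with tiles of 2000 bp, -9.50 with at least 5 CpGs, -11.8 with all tiles pooled, -10.3 with levels weighted by reads, -6.76 without chromosomes 3 and 16 and -6.74 in tiles under 40 reads per CpG. Its share of tiles at 20% to 80% minus that of the rest, 20.6 points, was 24.2 with at least 20 reads, 17.1 with at least 5, 18.9 with tiles of 2000 bp, 29.4 with all tiles pooled, 14.8 without chromosomes 3 and 16 and 13.9 in tiles under 40 reads per CpG. The cause of these shifts was not tested.

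With a binomial model that allows no dispersion between libraries, 8 of 3027 end tiles were called, against 359 of all 135997 tiles. The same model called 12 of 19 end windows, against 347 of all 886 windows. Without young replicate 1 no end tile was called. Without young replicate 2, 1 end tile was called, of 3 tiles in all. Without young replicate 3, 1 end tile was called, of 11 tiles in all, and 3 end windows were called. Among the ends of single autosomes, chromosome 4 turned from 1.0 to -1.40 points with at least 20 reads, chromosome 17 from -0.35 to 0.754 with at least 5, chromosome 12 from -0.16 to 0.269 with the coverage limit and 0.712 with at least 5, and chromosome 14 from -0.65 to 0.0565 with at least 20 and 0.167 without young replicate 3. Chromosome 7 moved from -3.39 to -0.97 with at least 20 and -6.19 with at least 5, and chromosome 11 from -5.42 to -8.80 with at least 20. Gene calls were 0 in each alternative. Deviations of same-numbered libraries from the mean of their age had r = 0.0180 and -0.0461 across tiles. With 2 old libraries these deviations mirror each other, so such values cannot decide whether the numbers pair the libraries. With the replicate number as a block, ends minus rest was -1.87, the age difference 0.280, that of ends minus rest 0.378, the share under 20% -0.0201, and calls were 0 end tiles, 0 genes and 3 end windows. For the block and for the fit without young replicate 3, the number called of all 886 windows is not given here. The 3 end windows are therefore not shown to be particular to the ends.

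Tiles use 14353 of the 272058 CpGs listed in the ends. With 3 against 2 libraries no exact p under 0.1 can occur between the ages.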
